A study of Mus musculus with 2 samples.

Results

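The genes described here are the glucocorticoid receptor gene Nr3c1 and 9 genes known to be induced through it: Tsc22d3, Fkbp5, Sgk1, Klf9, Zbtb16, Errfi1, Lcn2, Angptl4 and Pdk4. They were followed in the mouse lens on postnatal day 7 (P7), and in the young adult on postnatal day 60 (P60). Their values come from probe sets, groups of short array probes for 1 transcript, whose platform annotation gives exactly 1 gene symbol, that of 1 of these genes. This gave 30 probe sets of the 45101 on the array, for 10 of the 18194 genes that have a probe set of their own. No probe set was shared between 1 of the 10 genes and another gene.

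Both groups were wild-type mice of strain C57/BL6 with no treatment, and differed by age alone as far as the labels state. At each age the lenses were pooled, and 1 pool was hybridised to 1 array. Neither the sex and number of the animals pooled nor the time of day at sampling is given in the sources used here. With 1 array per age there is no replicate and no test between the ages, so differences are given by size.

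Nr3c1 encodes a nuclear receptor that waits in the cytoplasm with chaperones, binds glucocorticoid hormone, enters the nucleus and binds DNA as a dimer. Its induced genes include inhibitors of inflammation, kinases of salt and survival signalling, transcription factors and regulators of fuel use. In the eye, long treatment with glucocorticoids is a known cause of posterior subcapsular cataract, and lens epithelial cells are known to carry the receptor.

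The receptor dimer binds a palindrome written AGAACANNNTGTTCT, with 12 fixed letters around a spacer. It was searched in the 250 bases before and 50 bases after each start site given by RefSeq for build GRCm38.p6. Since the palindrome reads the same on both strands, 1 scan covers both. For the 10 genes, 15 windows of 7 genes were kept: Errfi1, Fkbp5, Klf9, Lcn2, Pdk4, Sgk1 and Tsc22d3. Windows of the 10 genes on the chromosome of Nr3c1 were left out, so nothing is shown for the receptor gene. No window was available for Angptl4 and Zbtb16, so they were not searched. The whole palindrome was found in 3 of 32851 windows of the table, which is 0.00913%, and 1 of these 3 belongs to Sgk1. It lies before the fifth of 6 Sgk1 start sites, from 189 to 175 bases upstream. The 250 bases before that start are shown because they hold this match, with the palindrome and its spacer in capitals (chr10:21993640-21993889, plus strand):
Sgk1 upstream: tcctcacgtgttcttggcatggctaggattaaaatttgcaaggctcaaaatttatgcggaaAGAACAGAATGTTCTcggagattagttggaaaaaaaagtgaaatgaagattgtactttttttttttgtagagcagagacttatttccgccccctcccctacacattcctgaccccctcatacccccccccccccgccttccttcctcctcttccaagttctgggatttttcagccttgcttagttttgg

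The closest 15-base stretches of other windows are shown for contrast, with start sites numbered along the gene, with letters equal to the palindrome in capitals and all others in lower case:
Sgk1, start 3: AGAAgAttcTGaTCT
Errfi1, start 2: AaAACtcggTGTcCT
Lcn2: tcAACAgaaTGTaCT
Fkbp5: tGAAgAggcgGagaT
The Sgk1 stretch at chr10:21985921-21985935 (plus strand) matched 10 of the 12 letters, a closeness reached by 1.84% of all windows. Those of Errfi1 (chr4:150854835-150854849, plus strand) and Lcn2 (chr2:32387880-32387894, minus strand) matched 9 letters, as 14.5% of windows did or exceeded. The Fkbp5 stretch (chr17:28486290-28486304, minus strand) matched 6, which 99.9% of windows reached. Among windows not shown, that of Klf9 matched 7 letters, that of Pdk4 8, and those of Tsc22d3 7 or 8. The first window of Errfi1 matched 8, and the Sgk1 windows not shown matched 7 to 9. At least 7 letters were matched by 94.0% of all windows, and at least 8 by 57.0%. The 6-base arm AGAACA, read on either strand and contained in the full palindrome, was present in 4 of the 15 windows, of 2 of the 7 genes. These were 3 of 6 Sgk1 windows, with that of the whole palindrome among them, and 1 of 3 Tsc22d3 windows. No window of Errfi1, Fkbp5, Klf9, Lcn2 or Pdk4 held the arm. It occurred in 19.0% of all windows. These matches describe letters only, and a window without a match shows nothing about binding elsewhere.

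Signals below are linear MAS5 intensities. A floor of 103.9, the median taken over every value on the P7 and P60 arrays, was used as the limit of measurement, and values under it were raised to it before a ratio was taken. A fold against a value under the floor is therefore a lower bound. A difference of 2-fold or more on the brightest probe set counted a gene as higher or lower. Log2 ratios of different probe sets of the same gene had an SD of 0.58 across the arrays, pooled over 4239 genes. This is the only guide to error, and it does not cover variation between animals, between pools or between hybridisations. The ratio of 5′ to 3′ signal of control transcripts was lower at P60 than at P7, with 0.785 and 0.606 for beta-actin and 0.0995 and 0.0262 for the dap spike-in (P7 and P60). Its part in the differences between probe sets of a gene was not tested. Lens fibre markers were present at both ages: all 15 on the array were above the floor, for example Cryaa (57972 and 54828) and Mip (47008 and 43365).

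All 10 genes were measured at 1 age or both. All 10 had a log2 ratio above 0 on the brightest probe set, against 6674 of the 13029 measured genes. Of their 23 measured probe sets, 19 were above 0, against 10701 of all 22462 measured probe sets. At P60, 5 of 10 were at least 2-fold higher, namely Lcn2, Nr3c1, Sgk1, Klf9 and Errfi1, against 11.5% of the 13029 measured genes. None was 2-fold lower, against 9.44% of measured genes. The 10 genes were chosen with earlier results of these data known, so their values beside those of all genes are descriptive only. The median log2 ratio of the 10 was 1.03, beside 0.02 for all measured genes, and it ranged from 0.03 for Tsc22d3 to 1.77 for Lcn2. By probe set, 6 of 23 measured were 2-fold higher and 0 lower, against 9.89% and 10.6% of all measured probe sets. The share of higher members was thus smaller by probe set than by gene. With the dimmest measured probe set of each gene 2 of 10 were higher (Sgk1 and Lcn2) and the median was 0.37, and with the mean of its measured probe sets 3 were higher and the median was 0.62.

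**Figure D1:**
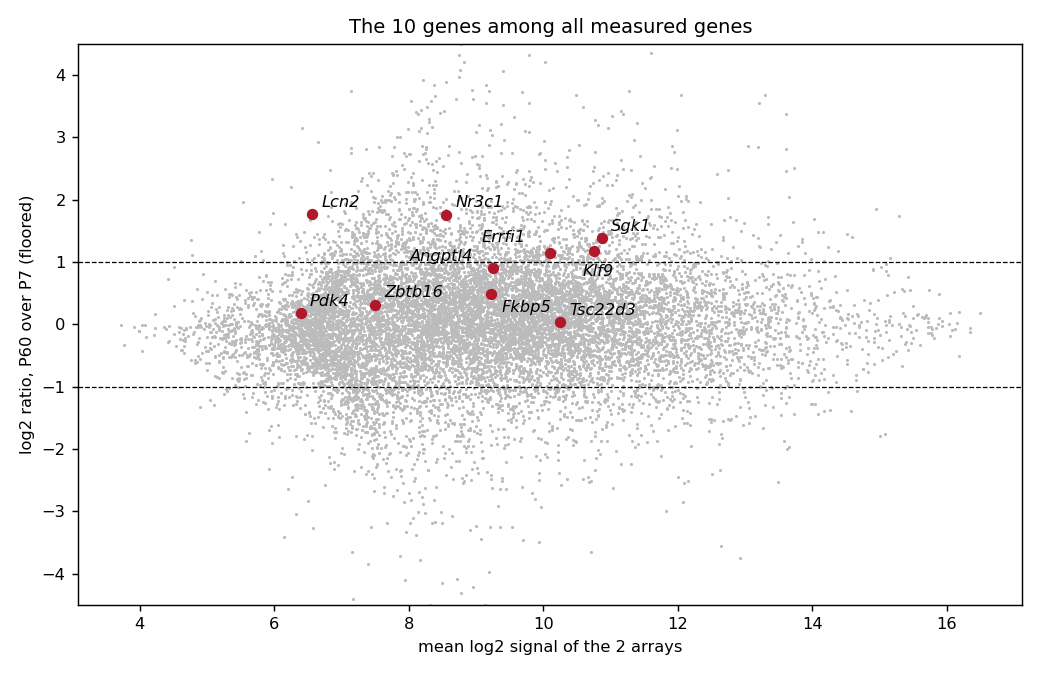
Log2 ratio (P60 over P7, values floored) against the mean log2 signal of both arrays, for the brightest probe set of each of 13029 measured genes (grey), with the 10 genes in red; dashed lines mark 2-fold, and 18 genes lie beyond the vertical axis. The 10 genes sit from 0.03 to 1.77, and 5 of them lie above the upper line.

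The receptor gene Nr3c1 was 3.39-fold higher at P60 on its brightest probe set, 1421867_at, with signals of 205 at P7 and 696 at P60. A second probe set, 1460303_at, read nearly the same, 214 and 664, a log2 ratio of 1.64. On the third that could be measured, 1457635_s_at, the signals were 132 and 170, a log2 ratio of 0.37. The pair of brighter probe sets thus moved alike, and the dim one differed from them by more than the SD between probe sets. The other 3 probe sets of Nr3c1 were under the floor on both arrays, at 51.6 to 99.8 at P7 and 38.5 to 54.2 at P60, and have no ratio. Of all measured genes, 3.18% had a ratio as high as that of Nr3c1.

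Tsc22d3 encodes GILZ, a leucine zipper protein that carries part of the anti-inflammatory action of glucocorticoids. Its brightest probe set, 1420772_a_at, read 1209 at P7 and 1238 at P60, a log2 ratio of 0.03. Its other measured probe sets went opposite ways: 1425281_a_at read 557 and 327 (log2 ratio -0.77), and 1425557_x_at read 285 and 368 (0.37). No probe set of Tsc22d3 reached 2-fold, and the remaining probe set, 1444365_at, was under the floor at both ages (92.0 and 44.7). The spread among its probe sets was larger than the difference between the ages on the brightest.

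Fkbp5 encodes a co-chaperone that lowers the hormone affinity of the receptor and so closes a feedback loop. Its signal was 503 at P7 and 705 at P60 on 1416125_at, 1.40-fold higher, which is within the SD between probe sets. On 1448231_at it was 119 at P7 and 9.72 at P60, so that this probe set was only just above the floor at P7 and its floored log2 ratio was -0.19. These measured probe sets of Fkbp5 disagreed in direction, and neither reached 2-fold on floored values. The remaining one, 1447736_at, was under the floor at both ages (17.7 and 41.4).

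**Figure D2:**
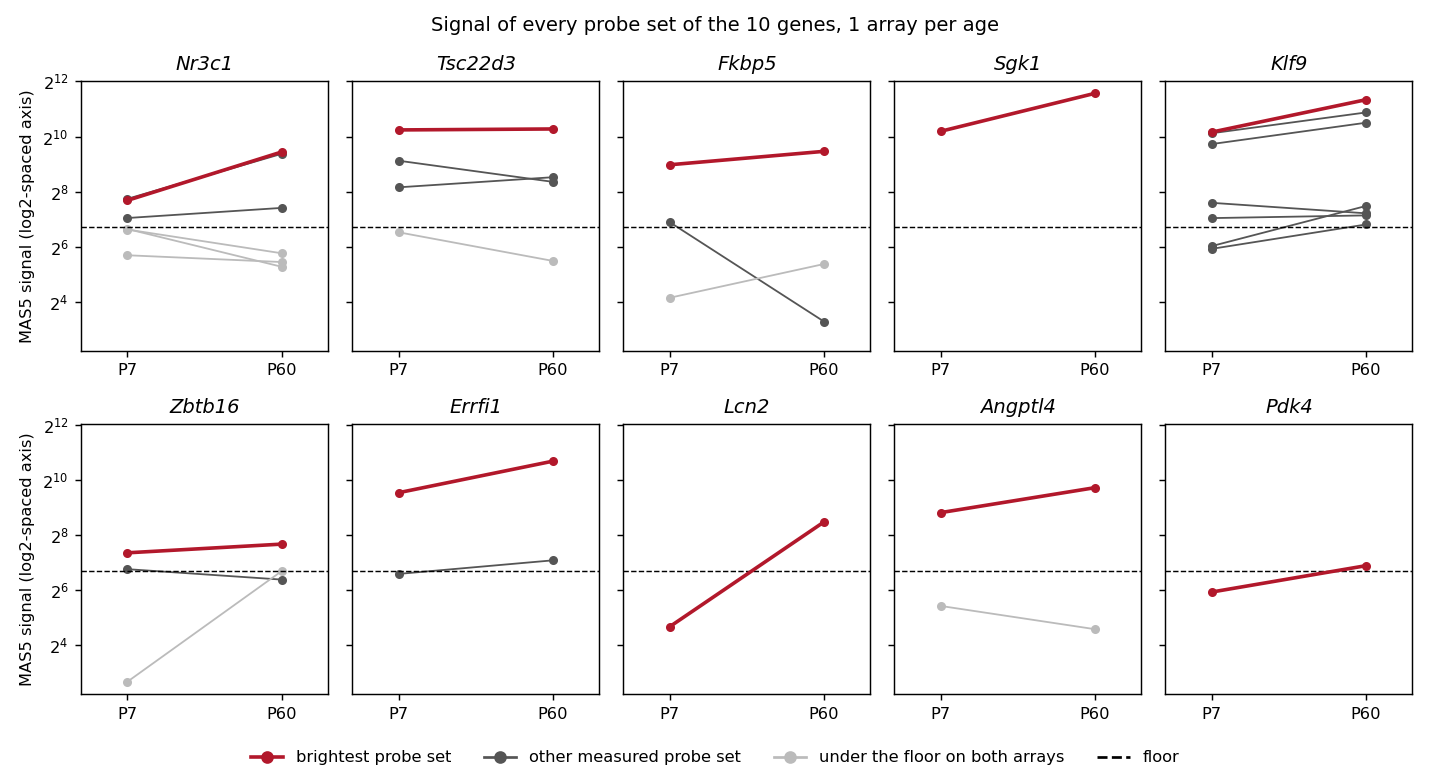
MAS5 signal (vertical axis, log2-spaced) at P7 and P60 of every probe set of the 10 genes, 1 array per age, with lines joining the ages and the dashed line at the floor of 103.9. The red line of Nr3c1 climbs from 205 to 696 and that of Sgk1 from 1167 to 3039, whereas that of Tsc22d3 is level.

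Sgk1 encodes a serum and glucocorticoid regulated kinase, which raises the activity of sodium channels and transporters. It was 1167 at P7 and 3039 at P60, 2.60-fold higher on its only probe set, 1416041_at. A ratio as high was found for 6.20% of measured genes. Of the 6 promoter windows of Sgk1, 1, shown above, holds the whole palindrome. Use of that start site in the lens, and any link between the match and the ratio, was not tested.

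Errfi1 encodes MIG6, a feedback inhibitor of the epidermal growth factor receptor. On 1416129_at it was 738 at P7 and 1635 at P60, 2.21-fold higher. Its second probe set, 1419816_s_at, lay near the floor with 95.7 and 135, so that its log2 ratio of 0.37 is a bound. Both probe sets of Errfi1 were on the higher side.

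Among the transcription factors, Klf9, a zinc finger repressor that is also driven by thyroid hormone and the clock, was represented by 7 probe sets. The brightest, 1456341_a_at, read 1143 at P7 and 2588 at P60, 2.26-fold higher. The next brightest, 1428288_at and 1428289_at, had log2 ratios of 0.76 and 0.78, from 1111 to 1877 and from 847 to 1450. These 3 bright probe sets were all higher at P60, but only the first passed 2-fold. The other 4 were dim, between 60.6 and 193 at either age, and their log2 ratios ran from -0.38 to 0.78. Klf9 was thus higher on 6 of 7 probe sets and 2-fold higher on 1.

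Zbtb16, which encodes the zinc finger factor PLZF, was dim at both ages. On 1439163_at it read 163 at P7 and 203 at P60, 1.24-fold higher, and on 1427638_at it read 108 and 82.9. The last probe set, 1419874_x_at, went from 6.36 to 103.2 and stayed just under the floor. No direction can be read from these values.

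**Figure D3:**
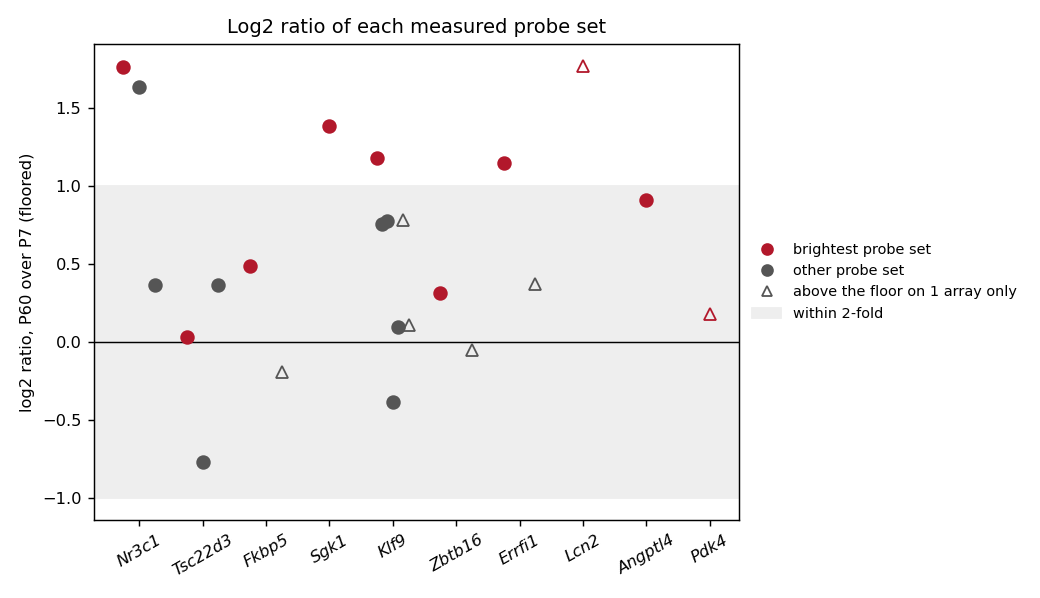
Log2 ratio (P60 over P7, values floored) of each of the 23 measured probe sets by gene; red marks the brightest probe set, open triangles those above the floor on 1 array only, and the grey band ratios within 2-fold. Points above the band belong to Nr3c1 (2), Sgk1, Klf9, Errfi1 and Lcn2, and the lowest point is a Tsc22d3 probe set at -0.77.

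Lcn2 encodes lipocalin 2, a secreted protein that binds iron-carrying siderophores and is abundant in neutrophils and stressed epithelia. It was 25.3 at P7, under the floor, and 354 at P60, at least 3.41-fold higher on its only probe set. That bound follows the floor: its log2 ratio of 1.77 became 2.77 with the floor at 51.95 and 0.77, under 2-fold, with the floor at 207.8. Of neutrophil markers, 4 of 10 were measured and 0 passed 2-fold, and the summed signal of all 10 was 1165 at P7 and 848 at P60. Among the measured ones, Ngp was 49.2 at P7 and 195 at P60, at least 1.88-fold higher. Ltf (log2 ratio -0.49), Mpo (-0.94) and Mmp8 (-0.46) were lower. The neutrophil genes S100a8 (75.8 and 75.1) and S100a9 (8.15 and 8.18) were under the floor at both ages. Of the 8 measured acute phase and inflammatory genes, 2 were 2-fold higher and none lower, against 11.5% and 9.44% of all measured genes. Their median was 0.34. The higher 2 were Serping1 and Stat3. Serping1, the C1 inhibitor, was 302 and 2576 (log2 ratio 3.09). Stat3 was 500.4 and 1615 (1.69, with other probe sets down to -0.54). Serpina3n was 5.21 at P7 and 181 at P60 (at least 1.74-fold higher). Nfkbiz (-0.28), Slc39a14 (-0.12) and Socs3 (0.04) had the lowest log2 ratios of the list.

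Angptl4 and Pdk4 act in fuel use and are also driven by fatty acids. Angptl4, which inhibits lipoprotein lipase, was 447 at P7 and 839 at P60 on 1417130_s_at, 1.88-fold higher and just short of 2-fold. Its other probe set, 1453410_at, was under the floor on both arrays (42.7 and 23.8). Pdk4, a kinase that turns off pyruvate dehydrogenase, was 60.6 at P7 and 118 at P60, at least 1.13-fold higher and barely above the floor. Fatty acid genes known to respond to the same stimuli did not share a direction. Of 19 measured, 1 was 2-fold higher and 2 were lower, against 11.5% and 9.44% of all measured genes. Their median was 0.29. The kinase gene Pdk2 (408 and 821) was the one that was higher. The lipid droplet gene Plin2 was 8.45-fold lower (1165 and 138), and Cpt1a, which admits fatty acids to mitochondria, 4.11-fold lower (4388 and 1069, with probe sets from -2.04 to -0.69). Ppargc1a had a log2 ratio of 0.75, Ppard of 0.73 and Acadl of -0.70. Of adipocyte markers 3 of 8 were measured, with none 2-fold higher and 1, Retn (375 and 107), lower. The sums over all 8 adipocyte markers were 783 and 420. Of muscle markers 5 of 12 were measured, and 1, Actn3, was 2-fold higher. The sums over all 12 were 945 and 932. Adipoq (63.3 and 7.04) and Ckm (89.5 and 92.9) were under the floor on their brightest probe sets, with another Ckm probe set at a log2 ratio of 1.39.

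The partners of the receptor were mostly within 2-fold, as were most measured genes. Of 28 measured chaperones, coregulators and related receptors, 26 stayed within 2-fold, against 10305 of all 13029 measured genes. Their median log2 ratio was 0.10. The exceptions were Nr3c2 and Dnaja1. Nr3c2 encodes the mineralocorticoid receptor, which also binds glucocorticoids; it was 16.0 at P7 and 319 at P60, at least 3.07-fold higher. Dnaja1, an HSP40 co-chaperone, was 3.66-fold lower (23431 and 6410), but its 3 probe sets ran from -1.87 to 0.34. The chaperone gene Hsp90aa1 had a ratio of 0.10 on its brightest probe set (21095 and 22551), and its probe sets ran from -1.78 to 0.10. Fkbp4, the co-chaperone that favours nuclear entry, had a ratio of -0.09 with probe sets from -0.52 to 1.36. The coactivator Ncoa1 had a log2 ratio of 0.97 and the importin Ipo13 of 0.79, while Kpna1 stood at -0.60 and Ep300 at -0.80. Hsp90ab1 and Ptges3 had no probe set naming them alone.

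Genes that set the local supply of hormone were often too dim to measure. Of 17 genes on the array 8 were measured, of which 4 were 2-fold higher at P60 and 0 lower, against 11.5% and 9.44% of all measured genes, with a median of 0.89. Hsd11b1, which regenerates active glucocorticoid inside cells, was 113 at P7, just above the floor of 103.9, and 478 at P60, 4.25-fold higher. H6pd, which supplies the cofactor for that enzyme, was 184 and 459, 2.49-fold higher. The signals of Hsd11b1 and H6pd thus differed in the same direction. Hsd11b2, which inactivates the hormone, was 37.5 at P7 and 216 at P60, at least 2.08-fold higher. The efflux pump gene Abcb1b was 5.13-fold higher on its brightest probe set (115 and 592), with its other probe set at -0.25, and its relative Abcb1a had a ratio of -0.67. Star (-0.30) and Cyp11a1 (-0.57), which act in the first steps of steroid synthesis, were near the floor, at 117 to 144 and 30.9 to 155.

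**Figure D4:**
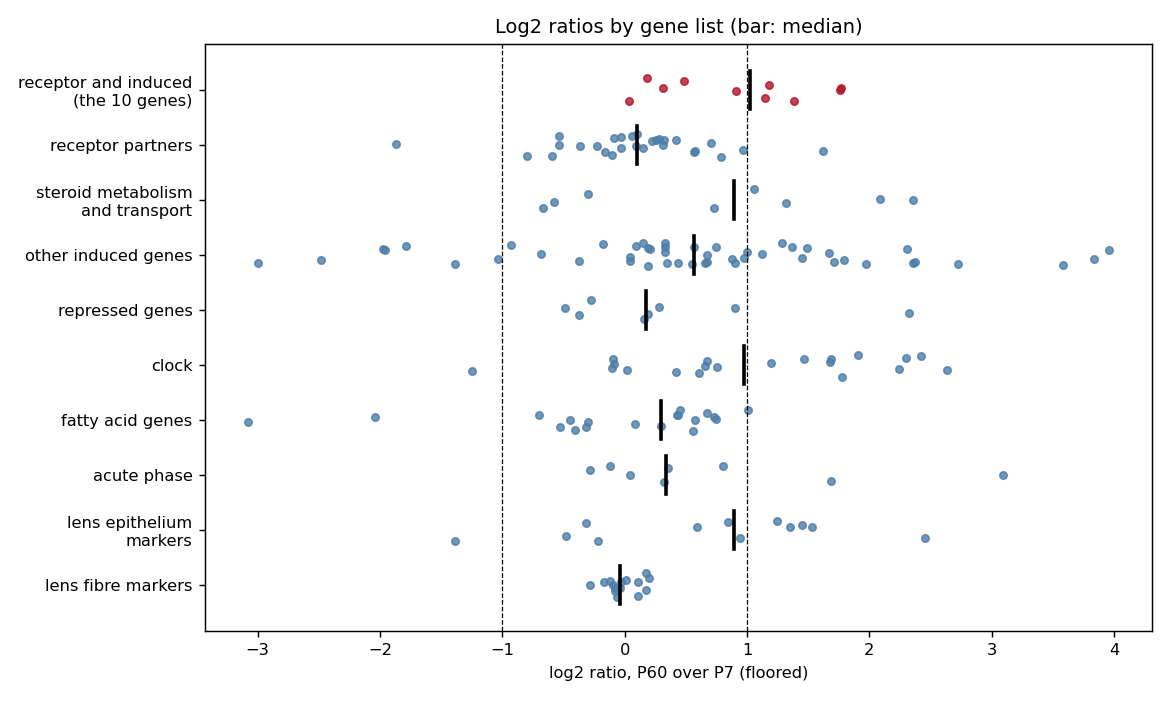
Log2 ratio (P60 over P7, values floored) of each measured gene by list, 1 point per gene on its brightest probe set, with black bars at the medians and dashed lines at 2-fold. The medians are 1.03 for the 10 genes, 0.10 for receptor partners, 0.57 for other induced genes, 0.97 for clock genes and -0.04 for lens fibre markers.

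Other genes known to be induced by glucocorticoids went both ways. Of 49 measured, 17 were 2-fold higher and 7 lower, against 11.5% and 9.44% of all measured genes, and the median was 0.57. The highest were Fam107a (log2 ratio 3.96, other probe set 2.13), the metallothionein gene Mt2 (3.84) and Fosl2, an AP-1 factor, at 55.0 and 1242 (at least 11.95-fold higher, other probe set 1.48). The lowest were Mt1 (-2.998), the stress gene Gadd45g (-2.48) and the cell cycle inhibitor Cdkn1c (-1.97). Dusp1, a phosphatase that ends MAP kinase signals and a standard receptor target, was 3453 at P7 and 2668 at P60, a log2 ratio of -0.37. Per1, a clock repressor that the receptor also induces, was 405 and 646, a log2 ratio of 0.68. The induced genes as a list thus held members far apart on both sides of 0. Genes known to be repressed through the receptor were mostly unmeasured: 16 of 24 were under the floor at both ages. Of the 8 others 1 was 2-fold higher, against 11.5% of all measured genes. The higher one was the chemokine gene Ccl2, at 7.52 and 521 (at least 5.02-fold higher). Il1b was 205 and 383 (log2 ratio 0.90) and Cxcl1 0.28, with its other probe set at -0.63. Icam1 (-0.49), Mmp3 (-0.37) and Tnf (-0.28) were under the floor at P60.

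Other signals differed between the same pools. Clock genes, some of which the receptor also drives, share Per1 with the list above. For them and for the markers below, the shares over all measured genes were 11.5% higher and 9.44% lower. Of 20 measured clock genes, 10 were 2-fold higher and 1 was lower, with a median of 0.97. Dbp (417 and 2597), Tef and Per3 led them, with log2 ratios of 2.64, 2.43 and 2.30, although probe sets of Per3 went down to -0.18 and of Tef to 0.18. Rorb was at least 2.38-fold lower, and Arntl and Cry2 both had a ratio of -0.10. Of 12 measured lens epithelium markers 5 were 2-fold higher and 1 lower, the median being 0.89, with sums of 50832 at P7 and 88315 at P60. Of 13 measured vascular endothelium markers 8 were lower and 0 higher, with sums over all 15 on the array of 5560 and 1443. The part of these in the values of the 10 genes was not tested, and in pooled tissue more cells of a type and more RNA per cell cannot be told apart.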

How the data were processed

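Total RNA of pooled lenses was labelled with biotin and hybridised to mouse Affymetrix arrays, 1 per age, per the labels' protocols. The authors deposited linear signal intensities for each probe set, made with MAS5 per the submitters' processing notes. For its version, scaling target and detection calls, nothing is given in the sources used here. After trimming 2% of probe sets at either end, the mean was 500.0 on both arrays. Probe sets with 1 annotated symbol (34958) named genes, updated by gene number to current symbols, and 932 with several and 9211 with none were left out. The floor, the log2 ratios and the counts were computed with Python 3.11.15, numpy 2.4.6 and pandas 2.3.3, and tested on simulated data. The precision is limited by the 2 arrays. A gene was represented by its brightest probe set, judged by mean log2 signal. Genes named are all members, the 3 highest and 3 lowest measured genes of each pathway list, direct receptor partners and markers bearing on a member. Members and lists were chosen with earlier results of these data known. Sequences are from RefSeq (GRCm38.p6). Alternatives were other floors, a pseudocount, other scalings, other choices of probe set and other fold limits.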

Additional observations from a re-analysis of the deposited data

How the results depend on the processing

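No paired analysis was possible because each age has 1 array. In no setting run was any of the 10 genes 2-fold lower at P60, and 2 to 5 were 2-fold higher; with a 1.5-fold limit 6 were higher and 0 lower, against 22.7% and 20.1% of all genes. The count of 5 higher genes became 2 with the dimmest measured probe set of each gene, 3 with the mean of its measured probe sets and 2 with a 3-fold limit, where 9.16%, 8.94% and 4.23% of all genes were higher. The median log2 ratio of 1.03 became 0.37 with the dimmest probe sets and lay between 0.62 and 1.15 in the other settings. With the dimmest probe sets Nr3c1 stood at 0.37, Errfi1 at 0.37, Klf9 at 0.11 and Fkbp5 at -0.19, and with the mean Klf9 stood at 0.47. The ratio of Lcn2 follows the floor: 2.77 at the lower floor of 51.95, 0.77 at the higher floor of 207.8 and 3.81 without a floor. Pdk4 stood at 0.96 at the lower floor and without one. Sgk1 ranged from 1.31 to 1.38. Tsc22d3 changed sign, to -0.05 with quantile normalization and to -0.12 with the mean of its measured probe sets. Angptl4 was not measured without _s_at and _x_at probe sets, nor Pdk4 and Zbtb16 at the higher floor. Signals near the floor limit Lcn2, Pdk4 and Zbtb16.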

Other observations

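The palindrome was also set against the ratios of all genes, an idea taken up after the Sgk1 match was seen. Of 136 measured genes with a promoter window matching at least 10 of the 12 letters, 16.9% were 2-fold higher and 13.2% lower at P60, with a median log2 ratio of -0.03. At 9 letters or more, 12.7% of 1117 measured genes were higher and 8.95% lower. Among all 10510 measured genes with a window, 11.4% were higher and 9.35% lower. Windows matching at least 11 letters belonged to 8 measured genes, of which 3 were higher: Car14, a membrane carbonic anhydrase (1616 at P7 and 4326 at P60, log2 ratio 1.42), Sgk1, and Plce1, a phospholipase C (291 and 712, 1.29). The serine synthesis gene Psph was lower (1002 and 426, -1.23). Sgk1 was the only measured gene with all 12 letters. Its match prompted the comparison, so its own ratio adds nothing to it.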
